A study of Caenorhabditis elegans with 6 samples.

Results

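The pals genes encode proteins with the PALS domain, a protein signature named after the human ALS2CR12 gene. The family was taken as every row of the deposited expression table whose gene name is "pals-" followed by a number, which gave 38 genes of the 46950 rows in the table. All 38 are annotated as protein-coding. The table was made from 6 whole-body libraries of polyadenylated RNA from the nematode Caenorhabditis elegans, 3 from worms labelled Control and 3 from worms treated with THz, which the series title describes as high power radiation of 0.26 THz. The sources used here give no strain, stage, age, length of exposure or power, and name no allele or transgene for either group. Whether replicate libraries were grown as separate cultures is not stated, so p-values reflect library-to-library spread that may be technical.

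The family is far larger in C. elegans than in mammals, and the biochemical activity of its proteins is not known. Several pals genes are induced together with other genes when intestinal cells are infected by microsporidia or by the Orsay virus, in a programme called the intracellular pathogen response. The same programme is switched on by prolonged heat stress and by block of the proteasome. Some members control it. PALS-22 holds it off and PALS-25 acts to promote it, while PALS-17 holds it off and PALS-16 and PALS-20 act to promote it. No reference sequence of these genes was used here, so none is shown.

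Values are FPKM, fragments scaled by gene length and by library depth, as an aid to comparing genes and libraries. This scaling does not make the libraries fully alike. The FPKM of all genes tested summed to 674745 in Control 3 and to 724318 in Control 1. Comparisons between genes rest on the deposited gene lengths. Reads per gene were recovered from FPKM, gene length and library depth, and all 155 values of the family above 0 came out whole within 0.05 reads. The libraries held 19079404 to 21977471 reads. Markers of intestine, epidermis, germline, sperm, muscle and neurons were all detected, and marker values that move with a pals result are given beside it. In whole worms, fewer cells of a type and less RNA per cell cannot be told apart.

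The pals family was expressed at a low level in worms of both groups. Of the 38 members, 33 had a read in at least 1 library, 18 had a read in all 6, and 5 (pals-9, pals-10, pals-12, pals-28 and pals-29) were listed at 0 in all 6. The number of members with a read ran from 24 in THz 3 to 28 in THz 1, and the control libraries had 25, 25 and 27. Together the members took 669, 625 and 852 reads in Control 1, 2 and 3, and 559, 616 and 606 reads in THz 1, 2 and 3. The highest mean FPKM in the family belonged to pals-23, which stood at percentile 64.8 of the 20845 genes with any value, where the median gene measured 2.07 FPKM. Only 9 members reached 1 FPKM in at least 3 libraries, the limit for testing, and these were pals-6, pals-16, pals-17, pals-18, pals-22, pals-23, pals-24, pals-25 and pals-34.

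**Figure D1:**
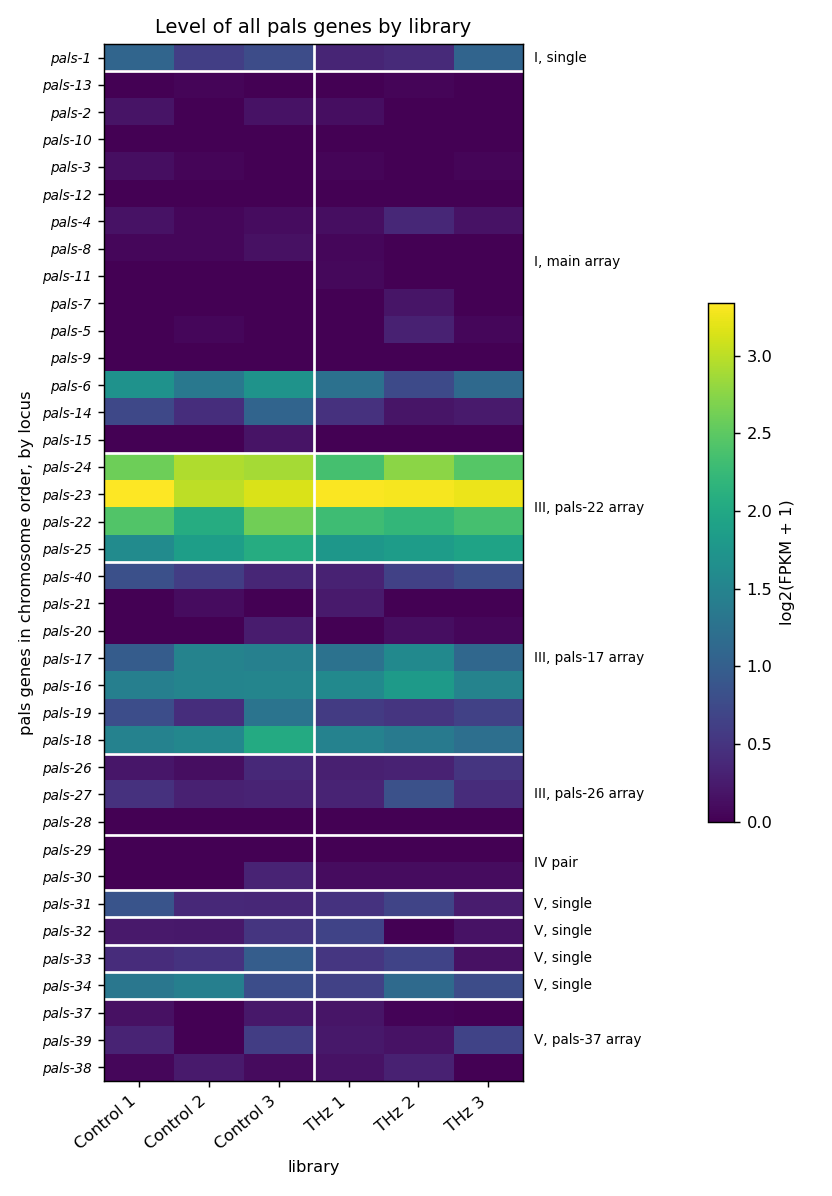
Heat map of log2(FPKM + 1) for all 38 pals genes (rows, in chromosome order and divided by locus) in the 6 libraries (columns). The brightest rows are the 4 genes of the pals-22 array on chromosome III, and most genes of the main array on chromosome I are at or near 0 in every library, apart from pals-6 and pals-14.

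Positions are those of the deposited table in build WBcel235. The 38 members lie on chromosomes I (15), III (14), IV (2) and V (7), at 11 loci when neighbours less than 20000 bases apart are joined. The main array on chromosome I, from 13083321 to 13144588, holds 14 members, of which 11 had a read and 1 reached the limit for testing. An array of 4 genes at the left end of chromosome III, from 120492 to 137975, holds pals-22 to pals-25, and all 4 were tested. A second array on chromosome III, from 1376945 to 1406230, holds 7 members, namely pals-16 to pals-21 and pals-40, of which 3 were tested.

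The 4 genes of the pals-22 array made up most of the family's summed FPKM in every library. They summed to 20.6, 19.5 and 22.6 FPKM in Control 1, 2 and 3 and to 19.4, 20.7 and 19.9 FPKM in THz 1, 2 and 3, which was between 56.8% and 64.5% of the family. The 2 groups overlapped. The array with pals-17 summed to 5.95, 6.52 and 8.61 FPKM in the controls and to 6.08, 7.21 and 5.66 FPKM after THz, again with overlap. The main array of chromosome I summed to 3.29, 2.05 and 3.84 FPKM in the controls and to 2.06, 1.54 and 1.59 FPKM after THz, so that THz 1 and Control 2 were nearly level and the other THz libraries were lower than every control. The whole family summed to 35.4 ± 4.03 FPKM over the controls and 31.7 ± 1.69 FPKM over the THz libraries (SD, 3 libraries each), a log2 ratio of -0.16. Control 3 had the highest sum of the 6 libraries, at 39.7 FPKM, and THz 2 at 33.7 FPKM lay above Control 2 at 31.7 FPKM, so the groups overlapped. No test is given for a sum over the members. Without Control 3 the log2 ratio was -0.07. Control 3 also had the highest summed FPKM of the 9 markers of epidermis and moult, at 239 FPKM. Control 1 and Control 2 had 160 and 49.9 FPKM, and the THz libraries 90.4 to 127 FPKM. Among the other marker lists, Control 3 was highest for neurons, at 295 FPKM, and lowest for sperm, at 10.5 FPKM. For intestine, germline and muscle another library was highest. The part of any of these tissues in the family's sum was not tested.

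**Figure D2:**
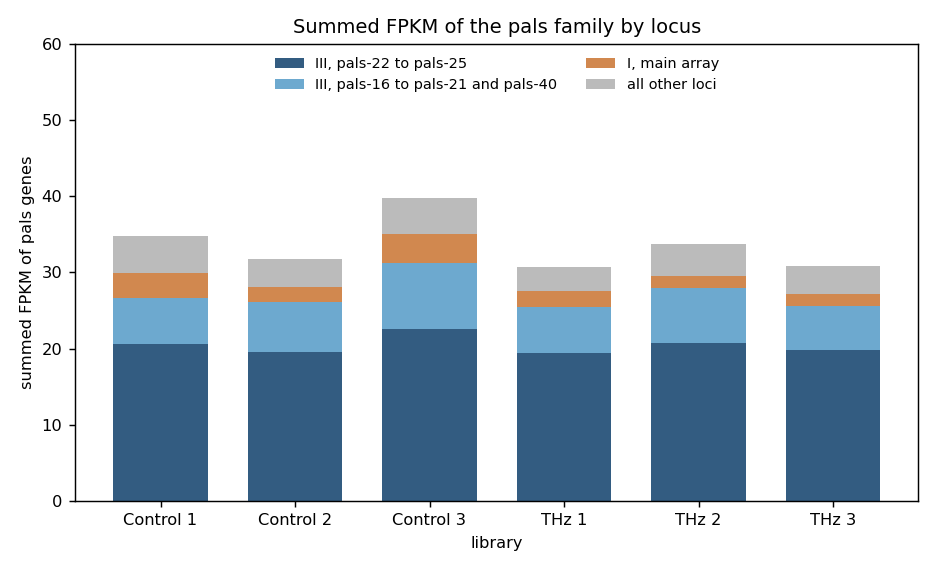
Stacked bars of the summed FPKM of the pals genes in each library, split by locus. The lowest segment, pals-22 to pals-25, holds between 19.4 and 22.6 FPKM in every library, and the orange segment, the main array of chromosome I, is 3.29, 2.05 and 3.84 FPKM in the controls and 2.06, 1.54 and 1.59 FPKM after THz.

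The study set exposed worms against unexposed ones to find genes that respond to the radiation, and for the pals family the question is whether members moved together. No pals gene passed the test. With limma on log2(FPKM + 1), 0 of the 9 members tested had an adjusted p under 0.05, where 0% of all 12174 genes tested did. At an unadjusted p under 0.05 there was 1 member, pals-6, and 5.86% of all genes; voom on the recovered reads also left 0 members past the adjusted threshold and 1 of 13 at an unadjusted p under 0.05, against 5.67% of all genes. The 9 log2 differences, THz minus control, ran from -0.54 for pals-6 to 0.14 for pals-16, with a median of -0.08 beside 0.00 for all genes tested. The THz mean was lower for 6 of the 9, beside 49.5% of all genes, and for 4 of the 9 after quantile normalization. The 95% intervals of the 9 differences reached 0.35 to 0.58 to either side on the log2(FPKM + 1) scale. They take no account of the adjustment over all genes, so larger changes could also go undetected with these libraries. The interval of pals-6 left out 0, and pals-6 still did not pass. With voom the interval of pals-34 was wider, from -1.81 to 0.57.

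The genes pals-22 and pals-25, which act in opposite ways on the pathogen response, lie next to each other on the same strand of chromosome III. There are 92 bases between them. The repressor gene pals-22 (WBGene00016216, from 132418 to 134401) measured 4.41, 3.19 and 5.10 FPKM in Control 1, 2 and 3 and 3.93, 3.63 and 4.09 FPKM in THz 1, 2 and 3. All THz values lay inside the range of the controls. The log2 difference was -0.08 with a 95% interval from -0.54 to 0.37 (limma adjusted p = 0.940), and it was 0.04 without Control 3 and -0.23 without Control 2. The activator gene pals-25 (WBGene00020540, from 134494 to 137975) measured 2.07, 2.66 and 3.18 FPKM in the controls and 2.39, 2.59 and 2.82 FPKM after THz, also inside the controls' range. Its log2 difference was -0.00 with an interval from -0.45 to 0.44 (limma adjusted p = 0.997), and it was -0.12 without Control 1 and 0.10 without Control 3. The pals-22 level was above the pals-25 level in all 6 libraries. The ratio of their FPKM was 2.14, 1.20 and 1.60 in the controls and 1.64, 1.40 and 1.45 after THz, so the ratios after THz also fell inside the range of the controls.

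By the deposited lengths, the other genes of that array, pals-23 and pals-24, had the highest FPKM of the family in every library. The pals-23 gene (WBGene00016218, from 124778 to 126527) measured 9.10, 7.03 and 7.87 FPKM in the controls and 8.94, 8.78 and 8.43 FPKM after THz, with a log2 difference of 0.12 and an interval from -0.23 to 0.46 (limma adjusted p = 0.883). It was 0.04 without Control 2 and 0.20 without Control 1. The THz values lay between the highest and the second-highest control. The pals-24 gene (WBGene00016219, from 120492 to 124641) measured 5.05, 6.66 and 6.43 FPKM in the controls and 4.11, 5.73 and 4.51 FPKM after THz. THz 1 and THz 3 were below every control and THz 2 was above Control 1, and the log2 difference was -0.29 with an interval from -0.72 to 0.15 (limma adjusted p = 0.828).

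In the second chromosome III array, the genes with known parts in the pathogen response differed widely in level. The repressor gene pals-17 (WBGene00022346, from 1390450 to 1391852) measured 0.962, 1.80 and 1.73 FPKM in the controls and 1.39, 2.01 and 1.16 FPKM after THz. The groups overlapped, and the log2 difference was 0.02 with an interval from -0.52 to 0.55 (limma adjusted p = 0.990), moving to -0.15 without Control 1 and 0.12 without THz 3. The gene pals-16 (WBGene00022337, from 1399972 to 1401305), which promotes the response, measured 1.72, 1.85 and 1.86 FPKM in the controls and 1.99, 2.53 and 1.82 FPKM after THz. THz 1 and THz 2 were above every control and THz 3 was not, and the log2 difference was 0.14 with an interval from -0.28 to 0.56 (limma adjusted p = 0.882), and it was 0.05 without THz 2. The other promoting gene, pals-20 (WBGene00194746, from 1386993 to 1388497), was barely detected, with 5 reads in Control 3, 2 in THz 2, 1 in THz 3 and none in the remaining libraries. It shares 50.8% of its exonic bases with Y82E9BR.5 on the opposite strand, and a library kit that keeps no strand does not separate the reads of such a pair.

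In the same array, pals-18 (WBGene00022353, from 1404792 to 1406230), for which no role is given here, measured 1.78, 1.92 and 3.10 FPKM in the controls and 1.79, 1.59 and 1.33 FPKM after THz. Control 3 stood above the other 5 libraries, and THz 1 was level with Control 1. The log2 difference was -0.33 with an interval from -0.83 to 0.17 (limma adjusted p = 0.828), and it was -0.15 without Control 3. Its neighbour pals-19, below the limit for testing, showed the same high library, with 30 reads in Control 3 against 7 to 14 in the other 5 libraries.

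**Figure D3:**
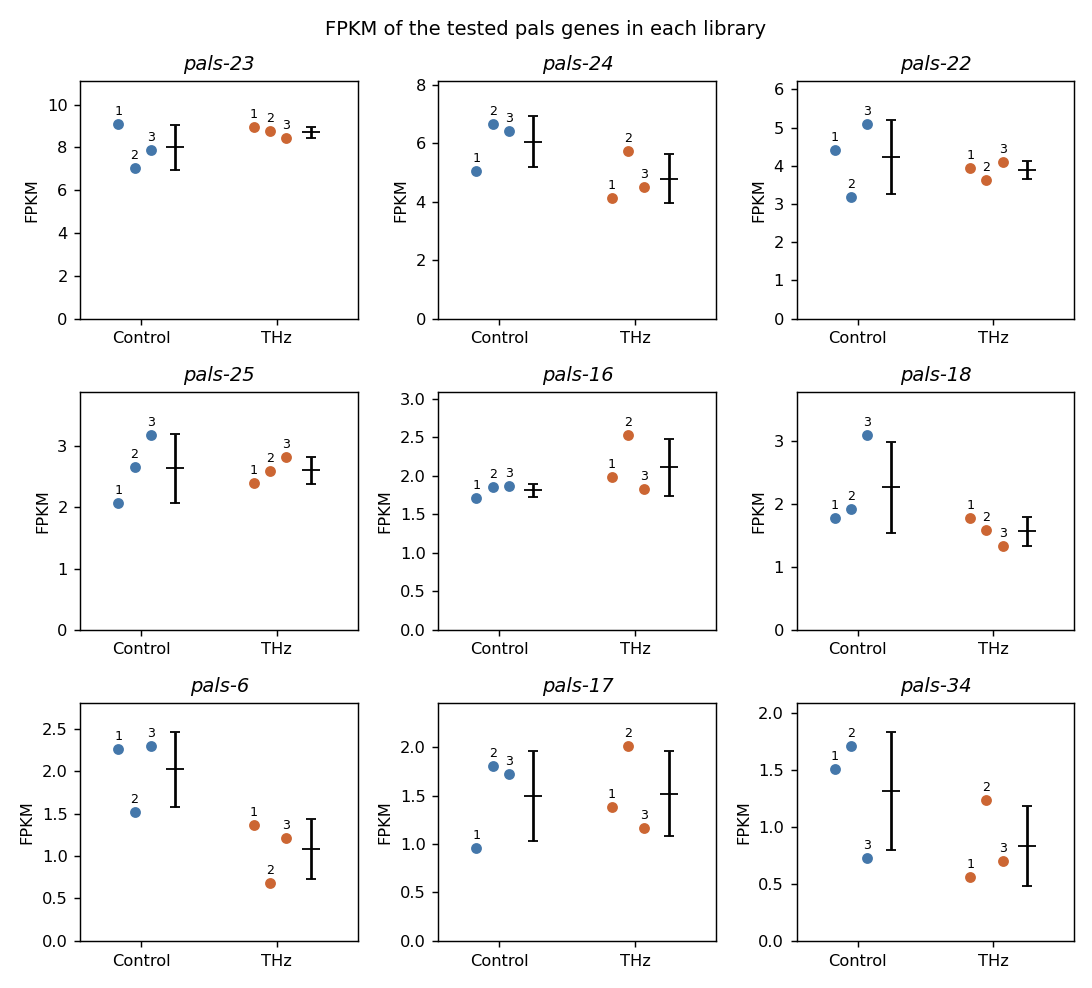
FPKM of the 9 tested pals genes in each library, with Control in blue and THz in orange, the replicate number above each point, and the mean and SD (n = 3) in black beside the points. The groups overlap for every gene but pals-6, where the THz points at 0.686 to 1.36 FPKM lie below the control points at 1.51 to 2.29 FPKM.

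On chromosome I, pals-6 (WBGene00007660, from 13136467 to 13138521) was the 1 member whose groups did not overlap. It measured 2.26, 1.51 and 2.29 FPKM in Control 1, 2 and 3 and 1.36, 0.686 and 1.21 FPKM in THz 1, 2 and 3, from 62, 43 and 68 reads and 35, 18 and 34 reads. All 3 THz libraries were below all 3 controls, as for 7.33% of all genes tested. The means were 2.02 ± 0.442 FPKM and 1.09 ± 0.354 FPKM (SD, n = 3 each). The log2 difference was -0.54 with a 95% interval from -1.05 to -0.03, an unadjusted limma p of 0.0405 and an adjusted p of 0.827, so pals-6 did not pass. Lower values at an unadjusted p under 0.05 were found for 4.01% of all genes. No member had all 3 THz libraries above the controls, where 6.44% of all genes did. Its size depended on the scale, since the difference was -0.92 with voom on the recovered reads (adjusted p = 0.836) and -0.21 with a pseudocount of 5 (adjusted p = 0.809). With weights estimated for each library pals-6 passed (adjusted p = 0.0234), as did 25.4% of all genes tested. Across its alternatives the adjusted p of pals-6 ran from 0.0234 to 0.999.

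Marker values of several tissues are set beside pals-6. None of these markers passed the test. All 4 markers of body wall muscle had every THz library below every control, where 7.33% of all genes tested did. They summed to 2089 to 2567 FPKM in the controls and 1666 to 1911 FPKM after THz, most of it act-4, at 1081 to 1637 FPKM. The 8 intestinal markers summed to 1748 to 2565 FPKM in the controls and 1710 to 2429 FPKM after THz, and 0 of the 8 had groups that did not overlap. By library the intestinal sums were 2565, 1748 and 2485 FPKM in Control 1, 2 and 3 and 2429, 1710 and 2138 FPKM in THz 1, 2 and 3. Most of each sum was asp-1, at 1231 to 1996 FPKM. Of the 7 germline markers, 4 had every THz library above every control, where 6.44% of all genes tested did. They summed to 1304 to 1401 FPKM in the controls and 1500 to 1524 FPKM after THz, most of it gld-1, at 721 to 862 FPKM. Of the 5 neuron markers, 1 (ric-4, for a SNAP-25 homologue) had every THz library below every control. The 5 summed to 280 to 295 FPKM in the controls and 279 to 290 FPKM after THz. Most of that sum was snb-1, at 246 to 255 FPKM in the controls and 250 to 252 FPKM after THz. The median log2 difference of the 5 was -0.31, with 3 lower and 2 higher after THz. The 9 markers of epidermis and moult summed to 160, 49.9 and 239 FPKM in Control 1, 2 and 3. After THz they summed to 90.4, 127 and 109 FPKM in THz 1, 2 and 3. The 5 sperm markers summed to 29.9, 29.2 and 10.5 FPKM in the controls and 27.8, 20.4 and 26.1 FPKM after THz. The part of RNA from any of these tissues in the pals-6 difference was not tested.

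The gene next to pals-6, pals-14, starts 610 bases further along on the other strand, and is named here because its values were seen. It had 14, 8 and 26 reads in the controls and 8, 3 and 4 after THz, which is 0.645, 0.356 and 1.11 FPKM against 0.393, 0.144 and 0.180 FPKM. THz 1 lay above Control 2, so the groups overlapped. The gene did not reach the limit for testing, and with no filter its log2 difference was -0.44 (limma adjusted p = 0.829).

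The remaining genes of the chromosome I array were close to undetected. The gene pals-5 (WBGene00007659, from 13130808 to 13132464), whose promoter drives the green fluorescent reporter commonly used to see the pathogen response in the gut, had 1 read in Control 2, 5 in THz 2, 1 in THz 3 and 0 in the other libraries. The gene next to it, pals-7, had 3 reads in THz 2 and 0 elsewhere, and pals-4, further away in the array, had 7 reads in THz 2 against 1 to 3 in each of the others. Not all nearby genes had most reads in THz 2, since pals-8 had 0 reads there, pals-11 had its 1 read in THz 1 and pals-9 was listed at 0. The genes pals-4, pals-5 and pals-7 did not reach the limit for testing. The gene pals-12 lies almost wholly inside pals-3, with 99.5% of its exonic bases shared, so a value listed at 0 for pals-12 does not say that it was not expressed. With no filter pals-5 had a log2 difference of 0.10 (limma adjusted p = 0.831).

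Of the members on chromosome V, pals-34 (WBGene00017823, from 7955404 to 7956497) alone was tested. It measured 1.51, 1.71 and 0.727 FPKM in the controls and 0.558, 1.23 and 0.705 FPKM after THz. Control 3 lay among the THz libraries, and the log2 difference was -0.33 with an interval from -0.91 to 0.25 (limma adjusted p = 0.828). It was -0.20 without Control 2 and -0.53 without Control 3. With library weights pals-34 passed at a limma adjusted p of 0.0490, as did 25.4% of all genes tested. Its adjusted p over the alternatives ran from 0.0490 to 0.999. Several other members varied widely within a group. The gene pals-32 had 13 reads in THz 1, 0 in THz 2 and 3 in THz 3, and pals-39 had 7, 0 and 15 reads in the controls and 4, 3 and 16 after THz. The gene pals-33 had 9, 11 and 28 reads in the controls and 11, 15 and 3 after THz. On chromosome III, pals-27 had 7 to 11 reads in 5 libraries and 21 in THz 2, and pals-26 had 3 to 11 reads in the controls and 7 to 15 after THz. These 5 genes are named because their reads were seen to spread, and none reached the limit for testing.

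Over the 24 members with a read that were not tested, the total reads in 6 libraries ran from 1 to 81, and 10 of them had fewer than 10. The THz mean was lower for 14 of the 24 and higher for 10. With no filter, 0 of the 33 members with a read had an unadjusted limma p under 0.05, where 5.22% of all 20845 genes did, and 0 had an adjusted p under 0.05. Over those 20845 genes, 6.09% had all THz libraries below the controls and 5.02% had them above, against 1 and 0 of the 33 members. Among these 33 members the highest value was in a control library for 20 and in a THz library for 13. Control 3, the deepest library, held the highest value for 12 of them and THz 2 for 8. The share of all genes highest in each library was not counted. Over all 12174 genes tested, the mean deviation of log2(FPKM + 1) from each gene's mean was also highest in Control 3, at 0.081, then THz 2, at 0.026.

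In order of mean FPKM over the 6 libraries, the tested members ran pals-23, pals-24, pals-22, pals-25, pals-16, pals-18, pals-6, pals-17 and pals-34. Within each library pals-23 lay above pals-24, pals-24 above pals-22, and pals-22 above pals-25. These ranks rest on the deposited gene lengths, which are 844 bases for pals-23 and 906 bases for pals-24. The Ensembl annotation has 1488 and 1012 exonic bases for them, so which of them is higher is uncertain. For pals-22 both lengths are 893 bases, so the order of pals-23 and pals-24 against pals-22 is uncertain too. For pals-18 the lengths are 939 bases deposited and 2356 annotated, so its level and whether it reaches the limit for testing are uncertain. Over all 6 libraries the lowest pals-23 value, 7.03 FPKM, was above the highest of pals-24, 6.66 FPKM, and the lowest pals-22 value, 3.19 FPKM, was just above the highest of pals-25, 3.18 FPKM. The ranges of all other neighbours in this order overlapped.

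Genes that are induced together with pals genes in the pathogen response, but are not members, were listed to set beside them. The list had 41 names, of which 33 distinct genes outside the family were in the table and 11 reached the limit for testing. None passed the test, and 0 had an unadjusted p under 0.05. The THz mean was lower for 10 of the 11, beside 49.5% of all genes, with a median log2 difference of -0.21 beside 0.00 for all genes. That median was -0.11 without Control 2 and -0.32 without Control 1. Of the 11, 1 had all THz libraries below all controls, where 7.33% of all genes did. That gene was skr-4, which encodes a Skp1-related subunit of the ubiquitin ligase that the response uses. It measured 12.7, 18.7 and 13.7 FPKM in the controls and 12.01, 11.8 and 12.1 FPKM after THz, with a log2 difference of -0.29 (limma adjusted p = 0.827), which was -0.13 without Control 2. The F-box gene fbxa-182 averaged 5.44 ± 1.49 FPKM over the controls and 4.20 ± 0.119 FPKM over the THz libraries, and M01G12.9 averaged 1.28 ± 0.334 FPKM and 0.892 ± 0.251 FPKM (SD of 3; limma adjusted p = 0.828 for both), with overlap between the groups for each. The log2 difference of fbxa-182, -0.28, was -0.12 without Control 2, and that of M01G12.9, -0.27, was -0.15 without Control 3. The cullin gene cul-6 and the RING gene rcs-1, which belong to the same ligase as skr-4, had log2 differences of -0.21 and -0.23. Their 95% intervals were -0.73 to 0.31 and -0.73 to 0.27, and the groups overlapped for both. In the same list skr-3 was at -0.13, also with overlap, and skr-5 did not reach the limit for testing.

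Several of the response's strongly inducible genes were also under 1 FPKM in every library. The chitinase-like gene chil-27 had at most 0.171 FPKM in any library, and the decapping-related gene eol-1 ran from 0.185 to 0.929 FPKM in the controls and from 0 to 0.300 FPKM after THz. The gene F26F2.1 measured 0.0237 to 0.206 FPKM in the controls and 0.101 to 0.139 FPKM after THz. Its neighbour on the list, F26F2.3, measured 0.0578, 0 and 0 FPKM in the controls and 0.123, 0.241 and 0.113 FPKM after THz. All its THz libraries were above all controls, as for 5.02% of all 20845 genes with any value. With no filter its log2 difference was 0.18 (limma unadjusted p = 0.0414, adjusted p = 0.829). None of the genes named in this paragraph reached the limit for testing.

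Regulators outside the family were all expressed above the pals genes in mean FPKM, and 0 of the 5 passed. The gene zip-1, for a bZIP transcription factor that drives part of the response, measured 11.8, 16.3 and 12.3 FPKM in the controls and 11.8, 9.97 and 9.88 FPKM after THz. The THz libraries were below the controls, with THz 1 only just so, and the log2 difference was -0.31 with an interval from -0.69 to 0.06 (limma adjusted p = 0.827). Without Control 2 it was -0.18. The RNA sensor gene drh-1 averaged 18.9 ± 1.94 FPKM over the controls and 21.1 ± 1.59 FPKM over the THz libraries, and lin-35, the retinoblastoma gene that represses the response, 28.8 ± 5.47 FPKM and 32.9 ± 3.00 FPKM (SD of 3; limma adjusted p = 0.828 for both). With library weights both passed, at limma adjusted p = 0.0496 for drh-1 and 0.0129 for lin-35, as did 25.4% of all genes tested. Over their other alternatives the adjusted p ran up to 0.999. The log2 differences, 0.15 for drh-1 and 0.20 for lin-35, were 0.07 and 0.04 without Control 1.

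**Figure D4:**
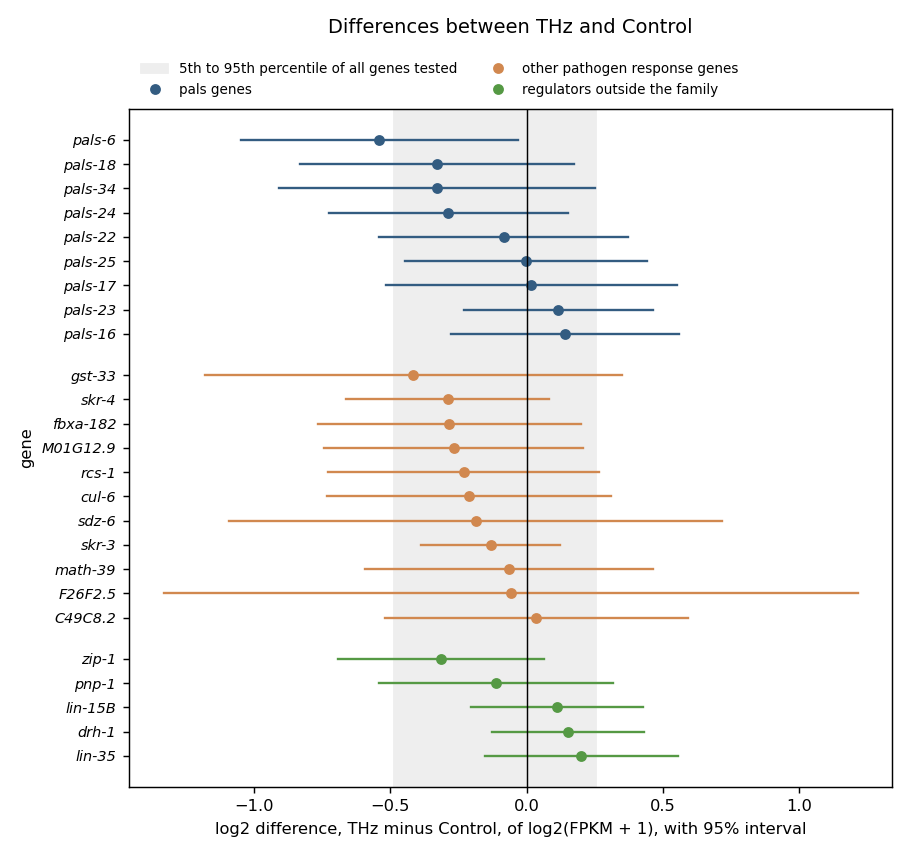
Log2 difference of log2(FPKM + 1), THz minus Control, for the tested pals genes (blue), other genes of the pathogen response (orange) and regulators outside the family (green), with 95% limma intervals as bars, over a grey band for the 5th to 95th percentile of all genes tested (-0.48 to 0.25). The interval of every gene shown includes 0 except that of pals-6, at -1.05 to -0.03, which did not pass after adjustment.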

How the data were processed

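Per the labels' protocols, RNA of whole worms was extracted with TRIzol and turned into TruSeq RNA v2 libraries. Tools listed in the submitters' processing notes are STAR, HTSeq 0.5.4 and DESeq 1.10.1, on build WBcel235, without saying what each did. The authors deposited FPKM values, 1 per gene and library, with gene lengths (no other unit). How reads that fit several copies were counted is not stated, so values of closely related pals genes are uncertain. Strand and exon overlaps came from the Ensembl annotation of WBcel235; positions are those deposited.

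Genes that reached 1 FPKM in 3 or more libraries, 12174 in all, entered a two-sided limma 3.58.1 test (R 4.3.3) of log2(FPKM + 1) with a mean-variance trend, and p-values were adjusted over all of them by the Benjamini-Hochberg method. This scale understates changes of low genes. Depth was the whole number that made most FPKM values whole reads (88.5% of values above 0, tolerance 0.05 reads), so recovered reads served only as an alternative (voom, at least 10 reads in at least 3 libraries) and for depth. No exact test of single genes is given, since 3 against 3 libraries cannot go below p = 0.1.

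Per-library values are given for members that reached the testing limit and for members with a known regulatory or reporter role. The 3 lowest-p genes of each list are named, with per-library values for skr-4 and zip-1 and group means and SD for the others. Of the 41 listed names, 5 were older names of pals genes, 1 repeated a listed gene and 2 were not matched. Members and lists were chosen with earlier results of these data known. Scripts were tested on simulated data. The alternatives are in the closing section. Figures used matplotlib 3.10.9.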

Additional observations from a re-analysis of the deposited data

How the results depend on the processing

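The count of 0 pals genes called held under 16 of 17 alternatives: other pseudocounts, filters and scalings, limma without trend or robust, voom, the replicate block, and leaving out each library. With library weights 2 passed, and 3092 genes of all tested; the weights ran from 0.180 for Control 2 to 4.29 for Control 1. Leaving out each library gave 0 pals genes throughout and 0 to 234 of all genes, with 234 without Control 2. The cause was not tested. The median difference of the tested pals genes was 0.058 after quantile normalization and -0.34 with voom, and -0.20 to 0.036 on leaving out a library, lowest without Control 2 and highest without Control 3. The count with a lower THz mean was 19 of 33 with no filter, 1 of 2 with a filter of 5 FPKM (other genes tested), and 4 to 7 of 9 on leaving out a library. The median of the other pathogen response genes was -0.035 with no filter (32 genes) and -0.028 with library weights. The family's summed log2 ratio was -0.23 to -0.07 on leaving out a library and could be recomputed for no alternative but these and median-ratio scaling.

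Directions of small differences turned. For pals-22 the difference was 0.058 after quantile normalization, and -0.23 to 0.036 on leaving out a library. For pals-25 it was 0.00077 with a pseudocount of 0.1, 0.12 after quantile normalization, 0.00029 with median-ratio scaling, 0.23 with library weights, and -0.12 to 0.10 on leaving out a library. For pals-17 it was -0.15 to 0.12 on leaving out a library. With library weights pals-23 was at -0.049 and fbxa-182 at 0.0099.

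With the replicate number as a block, 0 genes passed and 532 had an unadjusted p under 0.05, against 714 without it; the family median was -0.08 and no call changed. Deviations of same-numbered libraries correlated at -0.01, -0.14 and 0.03, so the numbers were not taken as pairs. Depth limits the low members: 1 read was worth 0.0455 to 0.0524 FPKM for a gene of 1000 bases.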
